A study of Homo sapiens with 2 samples.

Results

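The laminin and basement membrane proteoglycan genes comprised 9 members: the laminin chain genes LAMA5, LAMB1, LAMB2, LAMB3 and LAMC1, the proteoglycan genes AGRN, HSPG2 and COL18A1, and COL4A1, a chain of type IV collagen. An interval was taken as a member's where the deposited peak list gave the member's NCBI gene number and the midpoint of the interval lay inside the RefSeq span of that gene (hg38). By this rule 6 of the 9 genes held 13 of the 1406 distinct intervals of the list (0.925%), and LAMB1, LAMB3 and COL4A1 held none. The study mapped RNA bound by SF3B1 with HITS-CLIP: ultraviolet light joins a protein to the RNA it touches, an antibody pulls the complex down, and the RNA is read as short tags. Its 2 libraries were biological replicates of 1 group of MDA-231-LM2 cells, with no control or input sample. This established line was derived from human MDA-MB-231 breast cancer cells by selection for growth in the lung. The authors called peaks on the pooled tags of both libraries, so no value had a replicate error and the depth of each library was unknown. The antibody label named SF3B1 and the extract protocol named SNRBP2; SF3B1 was taken as the target.

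Basement membranes are thin sheets of extracellular matrix under epithelia and endothelia and around muscle and nerve. Laminins assemble from an α, a β and a γ chain and polymerise at the cell surface, type IV collagen forms a second network, and nidogens and heparan sulfate proteoglycans such as perlecan and agrin link the networks to each other and to receptors. SF3B1 belongs to the U2 small nuclear ribonucleoprotein, the particle that recognises the branch point of introns during splicing. The members are encoded by long transcripts of many exons, so that each pre-mRNA has many branch points. The list gives no exon or intron, and the sequence under the intervals was not analysed here, so an interval could not be placed relative to a splice site.

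Tags piled up highest on 3 laminin chain genes, LAMA5, LAMC1 and LAMB2, and reached lower heights on the 3 proteoglycan genes. The unit is the peak height, the number of pooled tags at the top of a peak, which is the authors' own value and is not normalised. The 13 heights ran from 6 to 23 tags with a median of 13, and 11 of them (84.6%) exceeded the list's median of 7 tags. Without LAMA5, 5 of 7 did (71.4%). Intervals in all other protein-coding genes had a median of 7 tags with quartiles of 6 and 10, and 46.0% exceeded 7 tags. The shares above 7 tags were not taken at a like listing limit. The list's second height, PH0, is read below as the height expected for a gene. It was 0.43 for LAMA5 and 0.42 for LAMB2, against a median of 0.04 over intervals of other protein-coding genes. No listed interval at a PH0 of 0.26 to 0.49 was lower than 8 tags. A listed interval of LAMA5 or LAMB2 thus exceeded 7 tags in any case. By gene, 5 of the 9 members held an interval above 7 tags, HSPG2 being the one of the 6 that did not, against 2.43% of all protein-coding genes. For LAMA5 and LAMB2 this count adds nothing to their being listed, and the 2.43% was not restricted to genes of like PH0. These counts and shares are descriptions without a test, because intervals of one pooled list are not replicates and the genes were chosen with the list known. At least 1 interval lay in 1057 of 19987 protein-coding genes (5.29%), and in 6.57% of those with a span between the shortest and the longest member. The plot of heights by gene shows each of the 13 values.

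**Figure D1:**
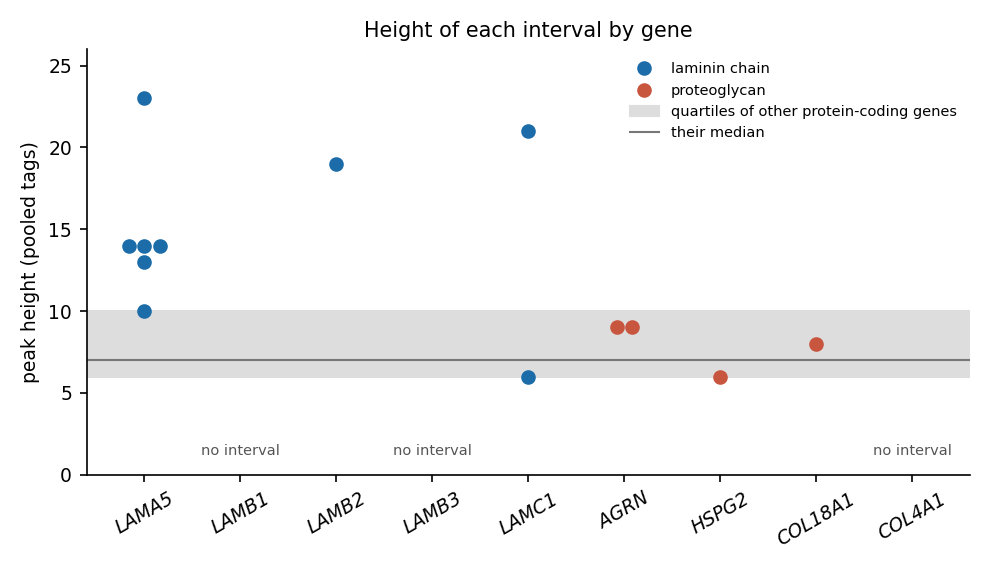
Peak height in pooled tags of each of the 13 intervals (points) in the 9 genes; the grey band and line are the quartiles (6 and 10 tags) and median (7 tags) of intervals in other protein-coding genes. LAMA5, LAMB2 and LAMC1 reach 19 to 23 tags, the proteoglycan genes stay at 6 to 9, and LAMB1, LAMB3 and COL4A1 have no interval.

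LAMA5, the gene of the laminin α5 chain found in most adult epithelial and vascular basement membranes, held 6 of the 13 intervals (46.2%) and 53.0% of their summed height. Its intervals lay on the minus strand of chromosome 20, within the span from 62309065 to 62367312. From the 5′ end of the gene onwards, the first was at 62337728 to 62337770 and reached 13 tags. The next, at 62331716 to 62331758, reached 14 tags, and the one at 62328425 to 62328479 reached 10 tags. A close pair followed, at 62324964 to 62325007 with 14 tags and at 62324566 to 62324614 with 23 tags, the tallest interval of any member. The last, at 62314455 to 62314497, again reached 14 tags. No interval of LAMA5 fell below 10 tags, and 3 of the 6 had the same height. Of all 1406 intervals, 84 (5.97%) were at least as tall as its tallest and 440 (31.3%) at least as tall as its lowest.

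Repeated intervals on one gene were uncommon in the list. At least 2 intervals lay in LAMA5, LAMC1 and AGRN among the members, and in 0.931% of protein-coding genes (1.07% of those within the members' range of spans). NAV2 and HNRNPH1, with 9 and 8 intervals, were the only protein-coding genes with more than LAMA5. Per length of gene, LAMA5 held 1.03 intervals per 10 kb. The value was 0.116 in NAV2, a gene of 776.4 kb, and 3.88 in HNRNPH1, a gene of 20.6 kb. Protein-coding genes with an interval and a span in the members' range together held 0.204 per 10 kb. The measure depends on gene length: LAMB2, with 1 interval in a short span, had 0.838. The midpoints of the close pair in LAMA5 were 395 nt apart, and the other 4 distances between neighbours were 3.3, 3.5, 6.0 and 10.1 kb. Neighbouring intervals of other protein-coding genes were a median of 5.3 kb apart (quartiles 1.0 and 17.7 kb, 252 pairs), and 13.5% of those pairs were within 500 nt.

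LAMC1, the gene of the γ1 chain that is the partner of α5 and of both β1 and β2, held 2 intervals of unlike height on the plus strand of chromosome 1. The interval at 183130483 to 183130539 reached 21 tags, and 101 intervals of the list (7.18%) were at least as tall. The interval at 183135006 to 183135047 reached 6 tags, a height that 77.5% of the list met or passed. They lay 4.5 kb apart, both in the last part of a gene of 122.2 kb.

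LAMB2, the gene of the β2 chain of kidney and synaptic basement membranes, is the shortest member, with a span of 11.9 kb. Its single interval reached 19 tags, on the minus strand of chromosome 3 at 49122379 to 49122446, and 128 intervals of the list (9.10%) were at least as tall. At 68 nt it was also the widest interval of the members, where the list's median width was 43 nt. LAMB1, the gene of the widely expressed β1 chain, and LAMB3, the gene of the β3 chain of epidermal laminin, held no interval under their own or any other gene number. Of the laminin that combines α5, β2 and γ1, the genes of all chains thus held an interval, while of the laminin that combines α5, β1 and γ1, the β chain gene held none. A missing interval shows only that no peak in these spans was listed, since the list holds significant peaks alone and gives no transcript level.

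The proteoglycan genes AGRN, HSPG2 and COL18A1 each held intervals of modest height. AGRN encodes agrin, which organises acetylcholine receptors at the neuromuscular junction. It held 2 intervals on the plus strand of chromosome 1, at 1042481 to 1042536 and at 1046144 to 1046186, both of 9 tags and 3.7 kb apart. HSPG2 encodes perlecan, a large heparan sulfate proteoglycan. A single interval of 6 tags lay in its span of 115.1 kb, on the minus strand of chromosome 1 at 21876562 to 21876604. COL18A1 encodes type XVIII collagen, a heparan sulfate proteoglycan whose C-terminal fragment is endostatin. Its only interval reached 8 tags, at chromosome 21, 45471189 to 45471233 on the plus strand. All 4 heights lay within the quartiles of other protein-coding genes. None reached the 10 tags of the lowest LAMA5 interval, and neither did 68.7% of the intervals of the whole list. The lower LAMC1 interval, of 6 tags, lay in the same range as the proteoglycan genes. On chromosome 21 the list gave 113 of 130 rows under genes that do not hold them, but the row of COL18A1 lay inside its gene and was listed once. Across the 13 intervals, the midpoint lay in no RefSeq gene other than the member, nested small RNA genes included.

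The order of the members differed when each peak was set against its own gene. The text field of each peak holds a second height, PH0, which is the same for all peaks of a gene and is read here as the height expected for that gene, although the list does not define it. It was 0.43 tags for LAMA5, 0.42 for LAMB2, 0.21 for AGRN, 0.05 for LAMC1, 0.03 for COL18A1 and 0.02 for HSPG2. The taller LAMC1 interval was 420 times its expected height (382 to 467 from the rounding of PH0), the HSPG2 interval 300 times (240 to 400) and the COL18A1 interval 267 times (229 to 320). The lower LAMC1 interval was 120 times (109 to 133). By contrast, the LAMA5 intervals were 23.3 to 53.5 times, the LAMB2 interval 45.2 times and both AGRN intervals 42.9 times the expected height. The genes with the lowest tag counts at their peaks, HSPG2 and COL18A1, therefore had higher ratios than LAMA5 and LAMB2. This order was largely set by PH0. The lowest height in the list was 5 tags at a PH0 of 0.02 and also at 0.03 to 0.05, and 8 tags at 0.26 to 0.49. Any listed peak of a gene with a low PH0 thus has a high ratio. The median ratio was 42.9 over the 13 intervals and 167 over the intervals of other protein-coding genes with an expected height above 0. LAMA5 set much of the former value: without it the median was 120, and with the tallest interval of each gene alone it was 160. The median PH0 was 0.42 over the 13 intervals and 0.04 over those of other protein-coding genes, so these ratios were not set at a like PH0.

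The deposited p-values, which are the authors' own, followed neither the heights nor these ratios throughout. The lowest one in the list, 1e-100, was given to 269 intervals. Among the members the taller LAMC1 interval alone had this value, and its lower interval had 3.47e-03. The LAMB2 interval of 19 tags had 4.21e-10, close to the 3.79e-09 of the COL18A1 interval of 8 tags. In LAMA5 the value ran from 4.06e-09 at 23 tags to 6.44e-03 at 10 tags, and in AGRN it was 2.15e-04 for both intervals. HSPG2, with 6 tags, had 4.96e-05.

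A gene with a higher expected height also needed a taller peak to be listed. The lowest height in the list was 5 tags where PH0 was 0.03 to 0.05, and 8 tags where it was 0.26 to 0.49. Each member was therefore also set beside protein-coding genes whose PH0 was within a factor of 1.2 of its own, a comparison chosen after the list had been seen. For LAMA5 these were 19 other genes with 28 intervals, with a median of 11 tags and quartiles of 9 and 13.25. Of the 6 LAMA5 intervals, 5 exceeded that median, and none of the 19 genes held more than 3 intervals. The LAMB2 interval of 19 tags compared with a median of 12 and quartiles of 10 and 14 over 44 intervals, those of LAMA5 among them. In LAMC1 the 21 tags compared with a median of 7 and quartiles of 6 and 9 over 133 intervals, of which 6 (4.51%) were at least as tall, whereas its other interval, of 6 tags, lay below that median. AGRN, at 9 tags, lay below the median of 10 of its like genes, HSPG2 lay at theirs of 6, and COL18A1, at 8, lay above theirs of 6. The plot of height against expected height shows where each interval stands.

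**Figure D2:**
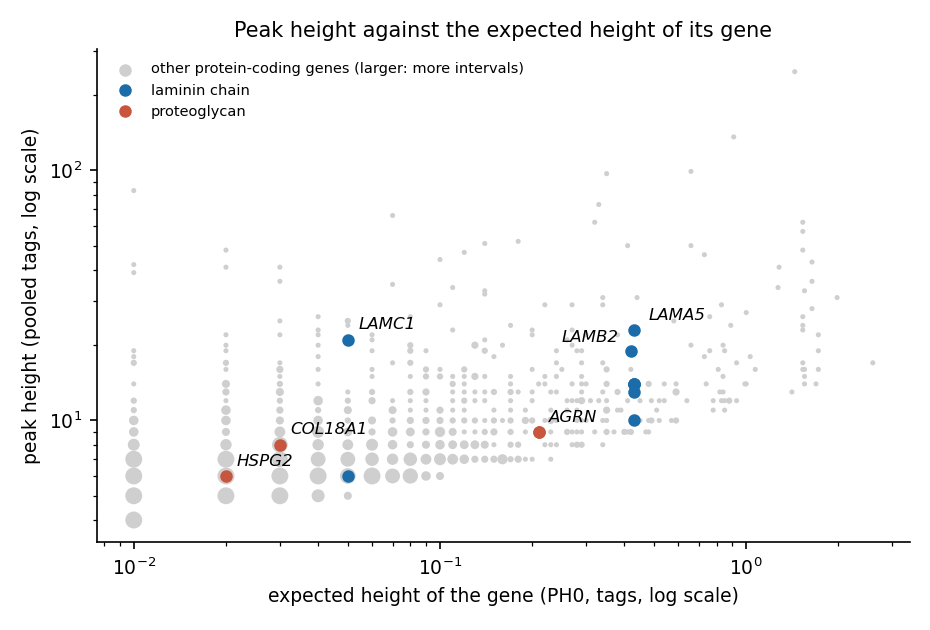
Peak height (pooled tags, log scale) against the expected height of the gene (PH0, tags, log scale) for the 13 intervals (coloured) and for intervals of other protein-coding genes (grey, larger where more intervals share a point). LAMA5 and LAMB2 lie at a PH0 of 0.43 and 0.42, while LAMC1 reaches 21 tags at a PH0 of 0.05 and HSPG2 and COL18A1 lie at 6 and 8 tags near the left side.

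All 13 intervals lay in the 3′ part of their gene, beyond 50% of the span. The position of each is given as the distance of its midpoint from the 5′ end of the RefSeq span, as a percentage of that span. In LAMA5 the 6 positions ran from 50.8% to 90.7%, with a median of 69.7%. The LAMC1 intervals lay at 87.7% and 91.4% and the LAMB2 interval at 89.1%. Those of AGRN lay at 62.2% and 72.4%, that of HSPG2 at 52.8% and that of COL18A1 at 60.8%. In percent of the span, the LAMB2, LAMC1 and last LAMA5 intervals thus lay farthest towards the 3′ end. The HSPG2 and first LAMA5 intervals lay close to the middle. In distance, the LAMC1 intervals were 15.1 and 10.6 kb from the 3′ end of their long gene. The median position of the 13 was 72.4%. Over all intervals in protein-coding genes the median was 66.2%, and 66.9% lay beyond 50% of the span, so a 3′ position was common in the list as a whole. Of the 49 protein-coding genes with 3 or more intervals, LAMA5 included, 17 (34.7%) held all of them there. Beyond 75% of the span lay 4 of the 13 intervals (30.8%), against 38.4% of all intervals in protein-coding genes.

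None of the 13 intervals lay in the last kb of its gene, a limit for which no share over the whole list is given here. The closest to a 3′ end was that of LAMB2, 1.3 kb from it, and the LAMA5 interval nearest to its 3′ end was 5.4 kb away. None of the 13 overlapped a RefSeq promoter window (250 bases before to 50 after an annotated start), and of all 1406 intervals 18 (1.28%) did. The promoter table lists no start of AGRN, so 11 of the 13 could be set against a window of their own gene. COL18A1 has 2 starts in the promoter table, and its interval lay 66.0 kb after the first and 15.7 kb after the second. The LAMC1 intervals lay 107.1 and 111.6 kb after the only start listed for the gene, and the HSPG2 interval 60.7 kb after its start. No exon map was used, so these distances do not tell exons from introns. The map of positions shows the intervals along each gene.

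**Figure D3:**
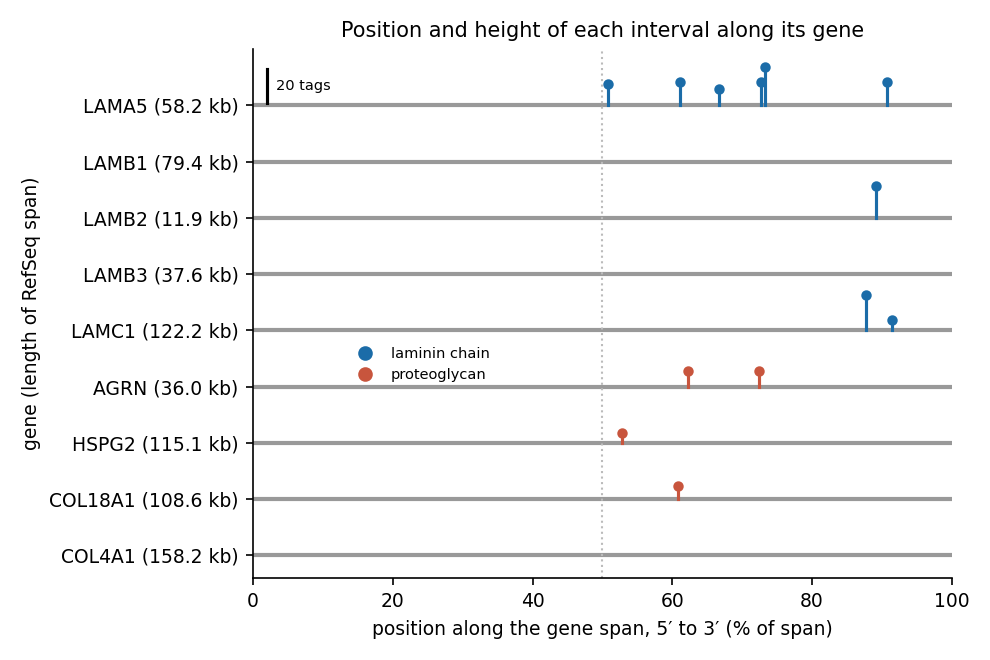
Position of each interval along its gene (x axis, percent of the RefSeq span from the 5′ end) for the 9 genes, with the height of each stem proportional to the peak height in tags. All 13 stems stand to the right of the dotted line at 50%, from 50.8% in LAMA5 to 91.4% in LAMC1; LAMB1, LAMB3 and COL4A1 have none.

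Most intervals of the members were of the list's usual width. The deposited list is labelled halfPH, a term it does not define, so a width need not cover the whole stretch under tags. In the list 57.5% of intervals were 42 to 44 nt wide, as were 7 of the 13 (53.8%). Over 50 nt were 4 of the 13, namely the LAMB2 interval of 68 nt, the taller LAMC1 interval of 57 nt, an AGRN interval of 56 nt and the lowest LAMA5 interval of 55 nt. In all, 11.2% of the list was wider than 50 nt. These 4 had 19, 21, 9 and 10 tags, all above the list's median height, as were 11 of the 13. The intervals of 6, 6 and 8 tags were 42, 43 and 45 nt wide. Width did not follow height throughout. The tallest interval, of 23 tags in LAMA5, was 49 nt wide. The LAMA5 intervals of 13 and 14 tags were 43 or 44 nt wide, and the other AGRN interval was 43 nt wide.

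Other genes of the basement membrane added 2 intervals. A list of 24 genes of the laminin, type IV collagen, nidogen and proteoglycan families, which includes the 9 members, had 8 genes with an interval (33.3%), of which 6 were members. Of the 15 genes that are no members, 2 held an interval (13.3%), against 5.29% of protein-coding genes and 6.57% of those of like span. Each of these 2 held 1 interval of 6 tags. LAMA3, the gene of the α3 chain of epidermal laminin, held one at 51.9% of its span with an expected height of 0.02. This interval lay upstream of the only LAMA3 start in the promoter table. COL4A2, the gene of the type IV collagen chain that assembles with that of COL4A1, held one at 92.0% of its span with an expected height of 0.01. The spans of COL4A1 and COL4A2 lie head to head on chromosome 13 with 126 bases between them, and COL4A1 held none. Of the 12 laminin chain genes 4 held an interval, and of the 6 type IV collagen genes 1 did. The genes of nidogens, NID1 and NID2, and COL15A1, the relative of COL18A1, held none. The members were picked with these intervals known, so their share is not evidence about the family.

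Among 18 genes of laminin and agrin receptors and other cell surface matrix receptors, 4 held an interval (22.2%). The share was 5.29% of protein-coding genes and 6.57% of those of like span. The receptor list was chosen with earlier results of these data known, so its share is not evidence about receptors as a class. ITGA3, the integrin α3 subunit, which binds laminins containing α3 or α5, held 3 intervals of 10, 12 and 10 tags with an expected height of 0.49, at 20.8%, 56.7% and 92.0% of its span. ITGB1, the β1 partner of that subunit, held 1 of 6 tags. ITGB4, the integrin β4 subunit of hemidesmosomes, held 1 of 10 tags at 3.69% of its span, 1.3 kb from the 5′ end. SDC3, a syndecan, held 1 of 9 tags, with an expected height of 0.02 and the deposited p-value of 1e-100. The deposited p-value was 1.33e-02 for both ITGA3 intervals of 10 tags and 2.90e-05 for that of 12 tags. It was 1.23e-02 for ITGB1 and 2.16e-08 for ITGB4. Unlike the 13 member intervals, those of ITGA3 and ITGB4 included positions in the first 25% of the gene. The heights of 6 to 12 tags lay below the tallest intervals of LAMA5, LAMB2 and LAMC1. The chart of shares gives the counts of each list.

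**Figure D4:**
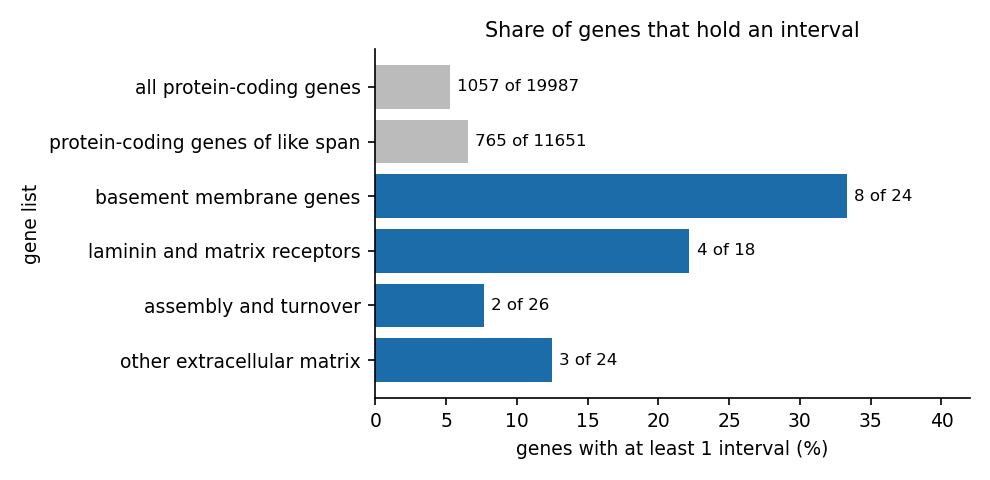
Percentage of genes with at least 1 interval (x axis) in 4 gene lists (blue) and in all protein-coding genes and those of like span (grey), with the counts beside each bar. The basement membrane list, which includes the 9 members, stands at 33.3% and the receptors at 22.2%. Other extracellular matrix stands at 12.5% and assembly and turnover at 7.69%, beside 5.29% and 6.57% for the grey bars. The lists were chosen with earlier results of these data known.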

How the data were processed

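The submitters' processing notes name cutadapt 2.3, BWA 0.7.17 and the build hg38. For the peak caller and its threshold, nothing is given in the sources used here. Peaks were called by the authors on pooled unique tags. The signal column deposited is the peak height in tags, and it equalled the height in the text field in all 1587 rows. The highest deposited p-value was 0.0499.

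Rows equal in position and strand were collapsed (1406 intervals). Genes were named through the RefSeq table of GRCh38.p14 (1190 of 1191 gene numbers matched; all 92 entries of the 4 lists matched). Protein-coding genes on chromosomes with a row were the background, and an interval inside several listed genes was counted for each. Gene direction was taken from the interval's strand, which equalled that of the RefSeq promoter table (GRCh38.p14) for the members in it; AGRN is not in that table. No test was run, as 1 pooled list has no replicates. The members, lists and comparisons were chosen with earlier results of these data known. All members, list genes with an interval, and any other gene at a member's interval are named; NAV2 and HNRNPH1 were named after their values were seen. Assignment was tested on simulated intervals. Alternatives were any overlap, gene numbers as listed, all rows, merging within 50 nt, taller intervals, other averages and leaving out LAMA5. Python 3.11.15, numpy 2.4.6, pandas 2.3.3 and matplotlib 3.10.9 were used.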

Additional observations from a re-analysis of the deposited data

How the results depend on the processing

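The counts of 6 members and 13 intervals were the same with any overlap of 1 nt; the first was also the same with gene numbers as listed, and the second with every row counted and with intervals within 50 nt merged. Among intervals above the median height the counts were 5 and 11, and the basement membrane list fell from 8 genes to 5, whereas the receptor list had 3 genes, assembly and turnover 2 and other matrix 3. The median height of 13 tags became 14 with the tallest interval of each gene, 11.7 as a geometric mean and 9 without LAMA5, the member with most intervals. The median ratio to the expected height, 42.9, became 160 with the tallest interval of each gene, 65.8 as a geometric mean and 120 without LAMA5, the last an alternative chosen after seeing the data. Intervals per 10 kb of span, 0.288 over the 6 genes with an interval, became 0.179 with all 9 genes and 0.178 without LAMA5. LAMA5 alone thus moves the ratio and the density by more than 1.5 times. Over all protein-coding genes with an interval the density was 0.13, and over those within the members' range of spans 0.204. The median position, 72.4% of the span, was 68.2% over the means of each gene and 72.4% without LAMA5. No paired analysis was possible because the deposited list pools both replicates, and no replicate could be left out. Transcript levels and the depth of each library are unknown, so abundance and binding cannot be told apart.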

Other observations

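Genes that build or remodel the basement membrane held an interval at a share near the background. Of 26 genes of collagen modification, heparan sulfate synthesis, matrix proteases and associated proteins, 2 held an interval (7.69%, against 5.29% of protein-coding genes and 6.57% of those of like span). EXT1, a heparan sulfate polymerase needed for the side chains of perlecan and agrin, held 3 intervals of 11, 6 and 6 tags. TINAGL1, a secreted matrix protein, held 1 of 8 tags.

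Of 24 genes of other extracellular matrix, 3 held an interval (12.5%, against the same 5.29% and 6.57%). This list, too, was chosen with earlier results of these data known. COL7A1, whose product anchors the epidermal basement membrane to the dermis, held 1 of 136 tags at 42.2% of its span. THBS1, the gene of thrombospondin-1, held 1 of 11 tags, and CCN1, a matricellular protein gene, 1 of 17 tags. The expected height of CCN1 was 2.59, so its interval was only 6.56 times that height, with a deposited p-value of 3.15e-02. The ratio was 28.2 for THBS1 and 149 for COL7A1. The COL7A1 interval was taller than every interval of the 9 members, whose tallest was the LAMA5 interval of 23 tags. Among the 11 collagen genes of this list, which include the genes of fibrillar types I, III and V, COL7A1 alone held an interval.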
